A study of Mus musculus with 2 samples.

Results

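The dystrophin glycoprotein complex spans the muscle plasma membrane, and 8 of its genes were examined here by gene activity in C2C12 myoblasts. They are Dmd, Utrn, Dag1, Sgca, Sgcb, Sgcd, Sntb1 and Dtna, and every RefSeq entry of these symbols was taken, which gave 15 of the 24165 entries in the table of gene activity. C2C12 is an established mouse line of myoblasts, cells that divide and can later fuse into muscle fibres. The table holds 1 value per entry from 2 untreated libraries, which the authors pooled, so no genotype, treatment or time was compared and no value per replicate could be given. Gene activity was measured by GRO-seq, in which nuclear run-on labels the RNA of engaged Pol II with bromouridine, and it is the read density on the sense strand of the gene body in RPKmM, reads per mappable kilobase, scaled to sequencing depth. Values are printed to 2 decimals, so differences between members have rounding bounds but no replicate error and no test. The table does not give the depth of a library, and no counting interval was computed.

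In mature muscle, dystrophin binds actin inside the fibre and beta-dystroglycan at the membrane, while alpha-dystroglycan binds laminin outside. The sarcoglycans form a subcomplex beside dystroglycan, and syntrophins and dystrobrevins attach to the C-terminal part of dystrophin and recruit signalling proteins. Utrophin is the autosomal homologue of dystrophin and is found along the membrane of immature muscle and at the neuromuscular junction. Loss of Dmd, of a sarcoglycan of the muscle subcomplex or of the enzymes that glycosylate dystroglycan causes muscular dystrophy.

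Dmd and Utrn were at opposite ends of the range, and the sequences next to their annotated starts are shown because these starts separate long and short Dmd transcripts and the alternative Utrn transcripts. RefSeq windows were found for 6 of the 8 members and were placed on mm9 (NCBIM37) by exact match, with 250 bases upstream of each start. The RefSeq windows give 2 Dmd starts on the plus strand of chromosome X, at 80194209 and at 82293634, which are 2099 kb apart. The upstream start belongs to the full-length muscle form, and the downstream start to the short form that retains the C-terminal part. For Utrn, on the minus strand of chromosome 10, the RefSeq start at 12581533 is that of the GENCODE vM1 transcript Utrn-202, and the annotation holds another coding transcript, Utrn-204, which starts 7.63 kb further upstream at 12589163. The Utrn-204 window was read from the mm9 genome, and each sequence is written in the direction of transcription. Capitals mark E boxes (CANNTG, the motif bound by MyoD and related factors), the CArG box (bound by serum response factor) and the ETS core (CCGGAA on either strand), and overlapping E boxes run together.
Dmd upstream start, chrX:80193959-80194208: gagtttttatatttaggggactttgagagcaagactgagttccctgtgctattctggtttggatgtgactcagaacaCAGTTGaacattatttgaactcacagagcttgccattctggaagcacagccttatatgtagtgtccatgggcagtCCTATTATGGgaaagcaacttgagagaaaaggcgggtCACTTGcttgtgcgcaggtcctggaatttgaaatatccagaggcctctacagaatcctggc
Dmd downstream start, chrX:82293384-82293633: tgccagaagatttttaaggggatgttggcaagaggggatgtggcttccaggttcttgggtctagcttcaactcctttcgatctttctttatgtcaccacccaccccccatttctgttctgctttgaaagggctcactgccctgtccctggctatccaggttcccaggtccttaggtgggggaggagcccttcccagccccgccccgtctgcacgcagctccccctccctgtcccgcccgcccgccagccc
Utrn RefSeq start, chr10:12581534-12581783: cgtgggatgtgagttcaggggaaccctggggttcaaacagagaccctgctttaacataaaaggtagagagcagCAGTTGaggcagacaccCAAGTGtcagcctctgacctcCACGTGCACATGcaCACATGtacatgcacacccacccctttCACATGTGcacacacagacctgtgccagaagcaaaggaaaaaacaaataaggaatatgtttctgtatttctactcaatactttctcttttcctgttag
Utrn-204 start, chr10:12589164-12589413: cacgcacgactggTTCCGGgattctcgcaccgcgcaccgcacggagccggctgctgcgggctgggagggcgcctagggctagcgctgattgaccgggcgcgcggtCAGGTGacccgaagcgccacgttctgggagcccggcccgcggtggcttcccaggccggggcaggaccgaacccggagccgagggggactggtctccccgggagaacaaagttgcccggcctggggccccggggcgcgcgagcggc

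The windows upstream of both genes differed in base composition. The window of the upstream Dmd start has 45.2% G and C with 2 CpG, and that of the downstream start has 60.0% with 7 CpG. The GENCODE vM1 start of the short transcript Dmd-003 lies 118 bp further downstream, and its window has 70.8% G and C with 20 CpG. The Utrn RefSeq window also has 2 CpG, with 46.8% G and C, while the Utrn-204 window has 33 CpG and 75.2%, more CpG than 96.0% of the 32851 RefSeq windows of this length, whose median is 6. The upstream Dmd window holds 2 E boxes and 1 CArG box, a motif found on either strand in 1.47% of all windows. The downstream Dmd window holds neither. The Utrn RefSeq window holds 7 E boxes, counted with overlap, a number reached by 0.0761% of all windows, although at least 1 E box occurs in 66.2% of them. The Utrn-204 window holds 1 E box and 1 ETS core, which occurs in 12% of all windows. Of the other members, Dag1 has 21 and 36 CpG at its 2 RefSeq starts, Sgcb 14, Sgcd 9 and Sgca 4. In the table as a whole, 25.0% of the 2288 symbols whose richest window has at most 2 CpG had an active entry, against 70.0% of the 8483 symbols with 3 to 19 and 90.4% of the 4428 symbols with at least 20. By its richest RefSeq window Dmd falls in the middle class and Utrn in the first, whereas by the GENCODE windows of Dmd-003 and Utrn-204 both genes would fall in the last. Motif matches are a description of these letters and were not related to binding. The windows lie next to annotated starts, and whether transcription begins there or whether they act as promoters was not tested. The E boxes of the Utrn RefSeq window are therefore not read as a trait of a Utrn promoter.

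**Figure D1:**
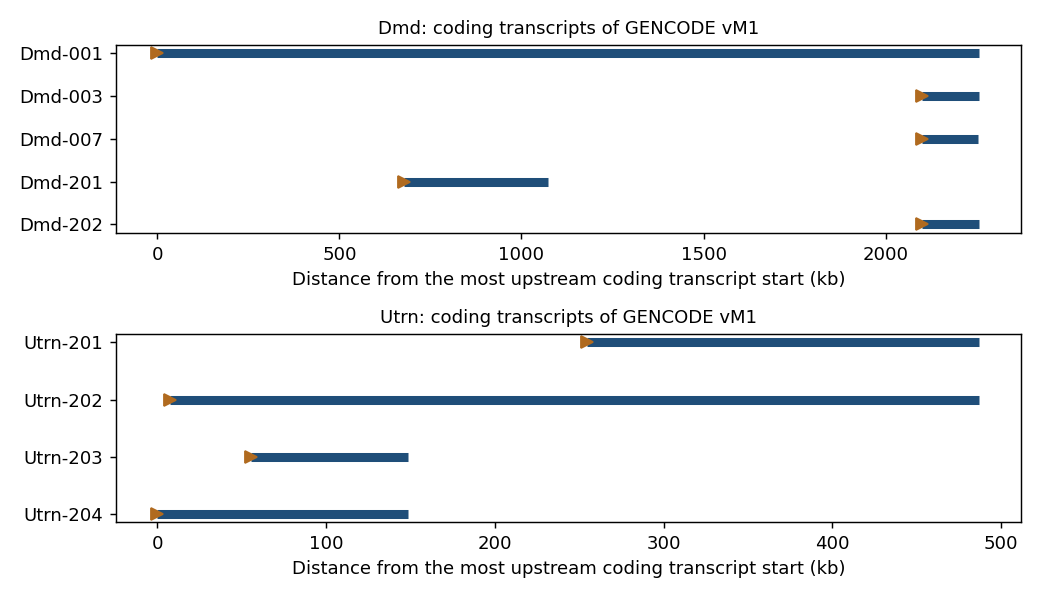
Coding transcripts of Dmd and Utrn in GENCODE vM1, as bars along the distance in kb from the most upstream coding start, with arrowheads at each start. Dmd-003, Dmd-007 and Dmd-202 lie in the last part of the 2257 kb of Dmd-001, Dmd-201 (395 kb) lies further upstream inside it, and Utrn-204 starts 7.63 kb before Utrn-202.

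At least 1 entry was active for each of the 8 genes. The authors called an entry active where its density exceeded that of gene deserts, and 13 of the 15 member entries were active (86.7%) beside 70.2% of all entries. By symbol, 68.7% of all symbols had an active entry. An activity of at least 1 RPKmM was listed for 7 of the 15 entries, of the genes Utrn, Dag1, Sgcb and Dtna, beside 32.3% of all entries. The median of the 13 active member entries was 1.12 RPKmM, and that of all 16957 active entries was 0.87, with quartiles of 0.22 and 1.99. The median of the active members changes little when a single entry is kept per gene, at 1.11. Entries of a gene overlap and are not independent measurements, and nothing particular to the complex is read from these shares.

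**Figure D2:**
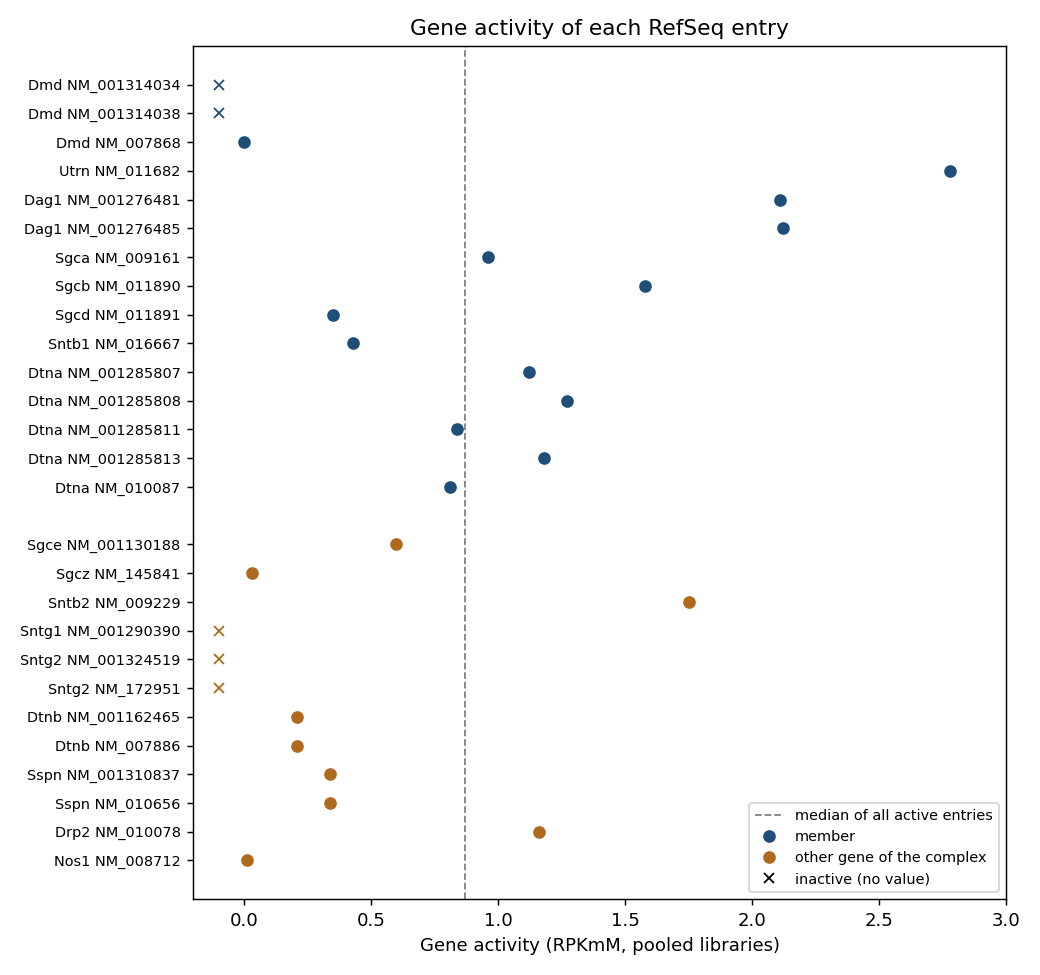
Gene activity in RPKmM (horizontal axis, linear) of each RefSeq entry of the 8 members (blue) and of 9 other genes of the complex (orange), with crosses for inactive entries, which have no value, and a dashed line at the median of all active entries (0.87). Utrn (2.78) and Dag1 (2.11 and 2.12) lie furthest to the right, and Dmd is at 0 or inactive.

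Dmd, the gene mutated in Duchenne muscular dystrophy, had the lowest activity of the members. NM_007868 was called active but is listed at 0, which stands for a density below 0.005 RPKmM, and NM_001314034 and NM_001314038 were inactive. Thus no Dmd entry had an activity that the table resolves. NM_007868 has its start at the upstream position in the study's gene lists. The table gives no coordinates, and the other 2 entries were not matched to a start here. No ratio between Dmd entries or of Utrn to Dmd was computed, since both need a value for Dmd above 0. The short transcript Dmd-003 covers 6.94% of the 2257 kb of Dmd-001 and lies wholly inside it, so reads of a short transcript would also count for the long entry. Dmd is 1 of 86 symbols with both active and inactive entries, and 1 of the 15 among them whose highest entry is listed at 0. In all, 154 active entries are listed at 0. The 150 of them with an annotated span had a median of 113 kb against 25.2 kb for all active entries and 15.6 kb for inactive ones. None of the 150 belongs to a gene longer than Dmd, which was nearly fixed in advance, as Dmd is the second longest of 18995 symbols. Of the 49 symbols that span at least 1000 kb, 23 were active (46.9%), with a median activity of 0.07 RPKmM. Of these 23, 13 had 0.1 or less, 2 were listed at 0, and the highest had 1.84. Dmd and Sgcd both appear among the NL genes of the study, which are genes whose bodies are associated with the nuclear lamina by DamID. That list was held in part, so the absence of other members from it says nothing.

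Utrn had the highest activity of the members. Its single entry, NM_011682, was listed at 2.78 RPKmM, above 83.2% of active entries. This is 3.20 times the median of active entries (rounding bounds 3.17 to 3.22). Among active entries of genes of at least 100 kb, it was above 90.9%. Utrophin is therefore the member of the dystrophin family with the most engaged polymerase per kilobase in these cells. The third member of that family, Drp2, which is known from Schwann cells, was at 1.16, so the ratio of Utrn to Drp2 was 2.40 (2.38 to 2.41).

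Dag1 encodes the single precursor that is cleaved into alpha- and beta-dystroglycan. Its 2 entries, NM_001276481 at 2.11 RPKmM and NM_001276485 at 2.12, do not differ beyond rounding and were above 76.5% and 76.6% of active entries. On chromosome 9, minus strand, the longest coding transcript of Dag1 runs from 108108289 to 108166255. Utrn was 1.31 times as active as the higher Dag1 entry (bounds 1.31 to 1.32).

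The 3 sarcoglycan members differed by several fold although their proteins assemble in 1 subcomplex. Sgcb (NM_011890) had 1.58 RPKmM, above 68.0% of active entries. Sgca (NM_009161), the type I membrane sarcoglycan of striated muscle, had 0.96, above 52.7%. Sgcd (NM_011891) had 0.35, above 30.5%. Sgcb and Sgca lie above the median of active entries and Sgcd lies below it. The ratio of Sgcb to Sgca was 1.65 (1.63 to 1.66) and that of Sgcb to Sgcd was 4.51 (4.44 to 4.59). Of the sarcoglycans found in other tissues, Sgce, which is closely related to Sgca, had 0.60 and Sgcz had 0.03. Among these 5 genes the order was Sgcb, Sgca, Sgce, Sgcd and Sgcz, and each step exceeds the rounding of the values.

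Syntrophins are adaptors with a PDZ domain that bind the C-terminal part of dystrophin, utrophin and dystrobrevin. The member Sntb1 (NM_016667) had 0.43 RPKmM, above 33.6% of active entries. Its relative Sntb2 had 1.75 and was 4.07 times as active (4.01 to 4.13). The gamma syntrophins had no activity called, as the entry of Sntg1 and both entries of Sntg2 were inactive.

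Dtna, alpha-dystrobrevin, binds syntrophins and dystrophin and had 5 entries with different activities. NM_010087 had 0.81 RPKmM and NM_001285811 had 0.84. NM_001285807 had 1.12, NM_001285813 had 1.18 and NM_001285808 had 1.27. The entries fall on both sides of the median of active entries, as the first 2 lie below it and the other 3 above. The ratio of the highest to the lowest was 1.57 (1.55 to 1.58), which exceeds rounding. They are counts of shared reads over different intervals of 1 gene and not separate measurements, and the entries could not be matched to annotated transcripts here. Dtnb, beta-dystrobrevin, had 0.21 in both of its entries, and even the lowest Dtna entry was 3.86 times as active (3.74 to 3.98).

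Further genes of the complex were Sspn (sarcospan), at 0.34 in both entries, and Nos1, the neuronal nitric oxide synthase that docks on the complex through syntrophin, at 0.01. With Sgce, Sgcz, Sntb2, Sntg1, Sntg2, Dtnb and Drp2 these form 9 genes with 12 entries, of which 9 were active (75.0%, beside 70.2% of all entries). Their active entries had a median of 0.34 RPKmM. Of the 12 entries, 2 (16.7%), those of Sntb2 and Drp2, reached 1 RPKmM, beside 32.3% of all entries. This split into members and other genes was made with the values known and was not tested.

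Because activity is a density, long and short genes of equal activity carry different numbers of polymerases. The load of a gene body was therefore estimated as the highest activity times the length of the longest coding transcript of GENCODE vM1 beyond its first 1 kb, in RPM (reads of this gene scaled to the depth in the same way), assuming that all bases are mappable. By span, 5 of the 8 members exceed 100 kb, and Dmd is the second longest of 18995 symbols with a span. Utrn spans 479.5 kb and had a load of 1330.4 RPM, which ranks 47 among 13398 active symbols, whose median was 17.8. Dtna, which spans 244 kb on the plus strand of chromosome 18, had 309 RPM and Sntb1, which spans 268 kb on the minus strand of chromosome 15, had 115. The Dtna load rests on the highest of its 5 entries, which was not matched to the longest transcript. A lower Dtna entry would give a lower load. Dag1 had 121 RPM over 58.0 kb. Sgcd had 239 RPM over the 683 kb of Sgcd-003, and 139.9 over the 401 kb of Sgcd-002, whose start lies 197 bp from the RefSeq start. In either case its load exceeded that of Dag1, although its density was lower. Sgcb had 22.1 RPM over 15.0 kb and Sgca had 12 RPM over 13.5 kb. For Dmd, rounding allows a load of up to 11.3 RPM, below the median of active symbols. Within the 8 members, 5 other annotated genes lie on the same strand, all of them pseudogenes or small RNA genes, of which 0 have an entry in the table. No annotated gene on the same strand ends within 10 kb upstream of a member.

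**Figure D3:**
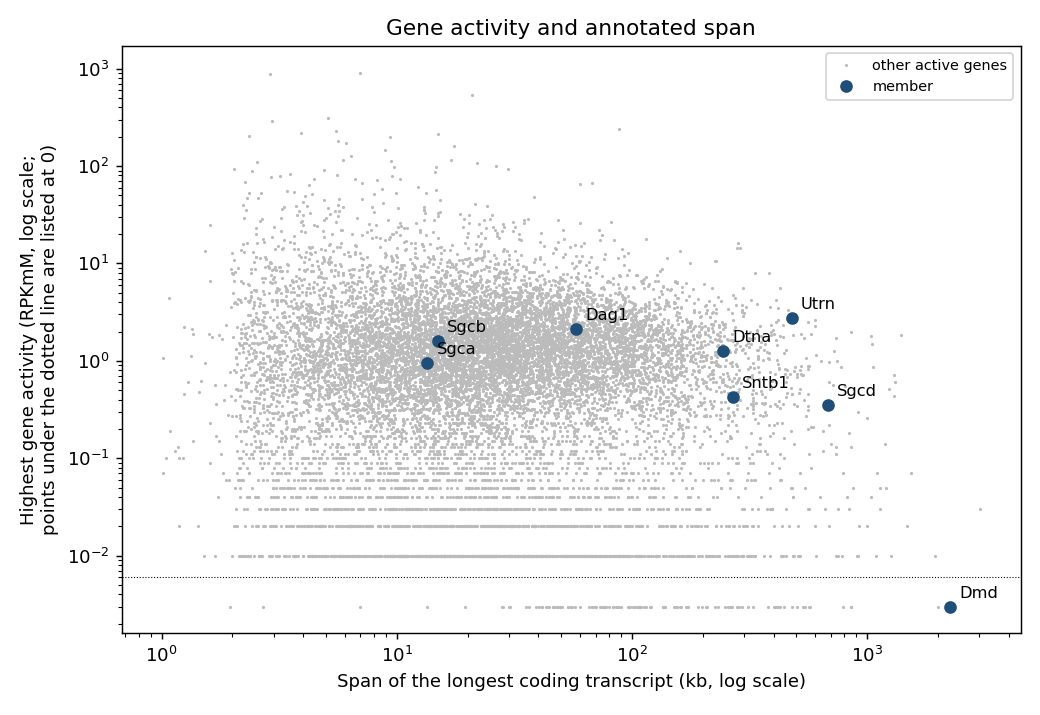
Highest gene activity in RPKmM against the span in kb of the longest coding transcript, both on log scales, for each active symbol with an annotated span (grey) and the 8 members (blue, named). Symbols under the dotted line are listed at 0; Utrn (479.5 kb, 2.78 RPKmM) lies high among genes of its length, and Dmd (2257 kb) is under the line.

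Dystroglycan binds laminin only after glycosylation of its alpha subunit, and all 20 entries of the 17 glycosylation genes in the table were active, beside 70.2% of all entries. Their median was 1.24 RPKmM. The most active were B4gat1, a glucuronyltransferase, at 16.35, Pomgnt1, an N-acetylglucosaminyltransferase, at 6.44 in its higher entry, and Dpm1, which makes dolichol phosphate mannose, at 4.31. The lowest was Gyltl1b (now Large2), a relative of the glycosyltransferase Large, at 0.01. Dpm3 was not analysed here. Among extracellular ligands of dystroglycan and their partner chains, 10 of 13 entries were active (76.9%), with a median of 3.02. Biglycan (Bgn) at 7.31, the laminin beta chain Lamb2 at 7.17 and perlecan (Hspg2) at 5.59 were highest, and Lama4 was lowest at 0.01. Lama1 and both entries of Egflam (pikachurin) were inactive. The laminin alpha chain of muscle, Lama2, had 1.00, a value chosen for mention after it was seen. Among intracellular and membrane partners, 37 of 38 entries were active (97.4%), a share that rests partly on the 11 entries of Plec (plectin). The 3 most active genes were Ahnak, at 237.71 in its higher entry and 69.96 in the other, Plec, at 28.91 to 65.38, and Vcl (vinculin) at 7.66. Synm (synemin) was lowest at 0.01, and Mast1 was inactive.

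**Figure D4:**
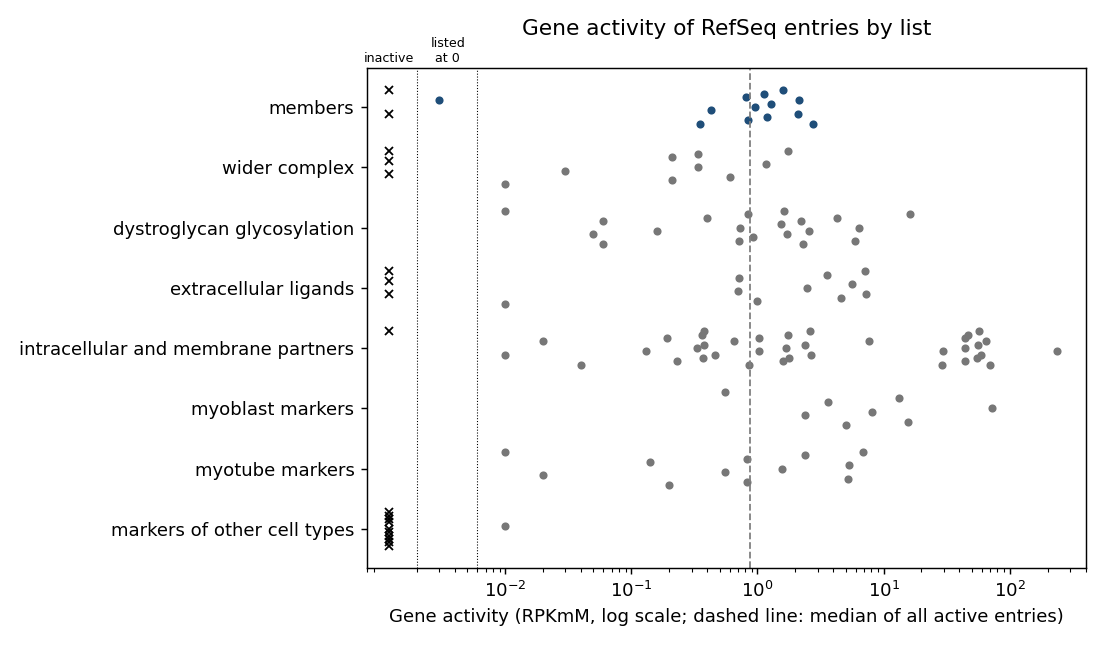
Gene activity in RPKmM (log scale) of every RefSeq entry of the members and of 7 further lists, each point an entry, with separate bands for inactive entries and for those listed at 0 and a dashed line at the median of all active entries (0.87). The members lie from 0.35 to 2.78 apart from Dmd, and 1 entry among the markers of other cell types has a value.

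Markers of cell types, from lists chosen with earlier results of these data known, are set beside the label of the cells. All 8 entries of myoblast markers were active, beside 70.2% of all entries, from 0.55 for Pax7 to 72.45 for Des, including Myod1 at 2.39 and Myf5 at 5.03. Markers of differentiated myotubes were also active in 12 of 12 entries, from 0.01 for Myh2 to 6.85 for Acta1, with Myog at 2.39. The call of active therefore does not separate these lists. The median of active entries was 6.55 RPKmM for myoblast markers and 0.83 for myotube markers. Of markers of blood, endothelial, fat, glial, epithelial, neuronal and liver cells, 10 of 11 entries were inactive and Pecam1 was at 0.01. The part of differentiating cells in the activity of the members was not tested.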

How the data were processed

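The authors made 2 GRO-seq libraries of untreated C2C12 myoblasts. Per the methods and the labels, which name CASAVA 1.8, Bowtie2 and mm9, reads were mapped to mm9, reads that were not uniquely mapped at the required quality were trimmed and remapped, unique reads were kept, rRNA and tRNA repeats were removed and the libraries were pooled. The deposited value is an RPKM over mappable bases, from 1 kb after the TSS to the TES, or the word Inactive. That word kept the unit from an automatic check, so it was read from the header and the methods. Pooling hides variation between libraries, repeats can leave parts of a body uncounted, and rounding to 2 decimals removes order among the least active genes.

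The 8 members and all lists were chosen with earlier results of these data known. Named are every entry of the members and of 9 other complex genes, and of each of the 3 lists of glycosylation genes, ligands and partners the 3 most active symbols, the least active one and all inactive ones, with Lama2 in addition. The cell type markers named were chosen after their values were seen. A few genes of the lists are not reported here and were left out of their counts. Percentiles count active entries strictly below a value. Rounding bounds use ± 0.005. Spans are of GENCODE vM1 (NCBIM37, the build of mm9), found for 94.4% of symbols. The sequences next to RefSeq starts are of RefSeq (GRCm38.p6) and were matched exactly to NCBIM37, since the builds differ. Percentiles were tested on simulated data. Python 3.11.15, scipy 1.17.1 and matplotlib 3.10.9 were used. No p-value was computed.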

Additional observations from a re-analysis of the deposited data

How the results depend on the processing

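When 1 entry was kept for each symbol, the number of active member entries fell from 13 to 8, because there are 8 symbols, and that of intracellular and membrane partners fell from 37 to 16, the number of their active symbols. The other counts stayed within 1.5 times the main count under the alternatives set for them. The median of active members, 1.12 RPKmM, became 1.11 with 1 entry for each symbol and 1.15 over entries listed at 0.01 or higher, and a geometric mean with a pseudocount of 0.01 in its place was 0.766. Entries of 1 gene share reads, so no interval was computed for it. The percentiles of all 13 active entries were higher by 5.00 to 29.8 points when inactive entries were ranked below active ones. Against genes of at least 100 kb, 12 of them were higher by up to 8.10 points, and Dmd stayed at 0. The planned ratios with Dmd gave no value. No replicate could be left out, and no paired analysis was possible because the table used here holds 1 value pooled over both libraries, and values per library were not analysed here.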
